A study of Mus musculus with 4 samples.

Results

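The genes described here are those whose microarray probes gave different answers about CPEB2 binding. A gene was taken when at least 2 of its probes were well above background on all 4 arrays and when the log2 ratios of CPEB2 IgG over control IgG at those probes spanned more than 1.5, from the lowest probe to the highest. The array carried probes for 24185 gene names, 4884 of them had 2 or more such probes, and 1182 passed the rule, which is 24.2% of the genes that could have passed. The ratios that chose these genes are given as a description, and no test was made on them.

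RNA had been precipitated from corticohippocampal tissue of male C57BL/6 mice aged 8 weeks. For each of 2 experiments a lysate was divided and incubated for 3 h with beads carrying CPEB2 IgG or control IgG, and the recovered RNA was hybridised to a 1-colour Agilent mouse array, which gave 2 CPEB2 IgG arrays and 2 control IgG arrays. The mice carried no stated transgene and had no stated treatment, and the sample titles name CPEB2 whereas a description field of the same samples names CPEB3. The sources used here do not say whether the 2 experiments used separate animals, so the spread between them may be technical.

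On each array 68.4 to 74.1% of spots were well above background and 0 were saturated, and 18 of 18 marker genes for neurons, astrocytes, oligodendrocytes, microglia and endothelium had a probe well above background on all 4 arrays. The number of arrays, 2 per antibody, limits the precision of every value. All arrays lay on 1 slide with each antibody at its own positions, so slide position and antibody cannot be told apart. Both antibodies drew on the same bulk lysate, so a ratio does not say in which cells of the tissue an RNA was bound. None of the arrays held RNA from before precipitation, so a ratio is relative to recovery with control IgG.

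CPEB2 belongs to the cytoplasmic polyadenylation element binding proteins, which regulate translation by binding the CPE, a short uridine-rich element (UUUUAU, or the longer form UUUUAAU) in the 3′ untranslated region of mRNAs. Many brain genes end their transcripts at more than one poly(A) site or use alternative last exons, so a probe can lie in a stretch that some transcripts of its gene lack. A probe reports only the transcripts that hold its own letters, and a probe near the far end of a gene and a probe near its start can therefore read different sets of RNA. Whether this applies to the genes described here was not tested.

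Each probe is a 60-base stretch of the sense strand, and it is placed on mouse build mm9 as the array annotation gives it. The higher probe is the tested probe of a gene with the highest ratio and the lower probe the one with the lowest, and downstream means toward the 3′ end of the annotated strand. The stretches that follow are 30 bases of higher and lower probes of 8 genes, chosen because the higher probe held a CPE or the poly(A) signal hexamer. Capitals mark the short CPE form TTTTAT, the longer form TTTTAAT or the poly(A) signal AATAAA, written as DNA, and lower probes are shown from their middle bases.
Golga3 higher probe, chr5:110655285-110655314, plus strand: tgagtttctcatTTTTATaaaaagttatct
Golga3 lower probe, chr5:110652117-110652146, plus strand: cacaagtatttgtgactgttgaaggaattc
Arrdc4 higher probe, chr7:75881935-75881964, minus strand: ccaaggggaaAATAAAgattgtattttgta
Arrdc4 lower probe, chr7:75886511-75886540, minus strand: ctccttagctgtaatccaagcttcttgaat
Nfatc2 higher probe, chr2:168301995-168302024, minus strand: atgcaaaacgaTTTTAATctccggtttcct
Nfatc2 lower probe, chr2:168361772-168361801, minus strand: cactgggaaaacggtcaccaccacgagcta
Hbs1l higher probe, chr10:21030756-21030785, plus strand: gctattatttgtatcattcctgTTTTATta
Hbs1l lower probe, chr10:21088621-21088650, plus strand: gaaatctgttcttaagtaacaaagatgcta
Pick1 higher probe, chr15:79086431-79086460, plus strand: acaaactttttgatTTTTATcattgtattc
Pick1 lower probe, chr15:79079291-79079320, plus strand: aaccaaggcagcttcactgatggagaggag
Scn3a higher probe, chr2:65296323-65296352, minus strand: gaagtttgtcaaAATAAAgactagttaaaa
Scn3a lower probe, chr2:65346349-65346378, minus strand: gccagaggtgataatacataaaccagctac
Kcnc1 higher probe, chr7:53693715-53693744, plus strand: attcgagcatgaAATAAAttttgtaacatg
Kcnc1 lower probe, chr7:53682782-53682811, plus strand: gagcgcttcaaccccatcgtgaacaagacc
Tardbp higher probe, chr4:147987022-147987051, minus strand: aattTTTTATgcttgcctagttataaggtc

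The span of the 1182 genes had a median of 2.07 on the log2 scale, an interquartile range of 1.74 to 2.56 and a maximum of 5.73, whereas the median over all 4884 genes was 0.75. The median ratio was 1.46 at the higher probes and -0.71 at the lower probes. The span exceeded 2 in 656 genes, 3 in 150 genes and 4 in 25 genes. The genes had 2902 tested probes, with 2 probes in 775 genes, 3 in 316, 4 in 65 and 5 to 8 in the remaining 26. A further 136 probes of these genes were not well above background on all arrays and were not used. The share of genes that passed was 19.9% among genes with 2 tested probes and 41.5% among genes with 3 or more.

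In 403 of the genes (34.1%) the higher probe was more than 1.5-fold up with CPEB2 IgG and the lower probe more than 1.5-fold down. Another 449 (38.0%) had a higher probe that was up and a lower probe within 1.5-fold, and 232 (19.6%) had a lower probe that was down and a higher probe within 1.5-fold. Both probes were up in 69 genes (5.84%) and both were down in 29 (2.45%). These classes depend on where zero is set, since the median ratio of all tested probes was -0.10 with the scaling used and 0.12 after centring on the median probe, while the span within a gene does not move with such a constant. By limma with Benjamini-Hochberg adjustment over 23916 probes, 24.6% of probes were called higher with CPEB2 IgG and 26.4% lower. In that fit 886 of the 1182 higher probes were called higher and 592 of the lower probes were called lower, which is a count of what the rule selected and no evidence about these genes.

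Golga3, a Golgi-associated golgin, had the largest span, 5.73. Its downstream probe, to Ensembl transcript ENSMUST00000112512 (chr5:110655283-110655342), had scaled signals of 1395 and 1576 on CPEB2 IgG arrays 1 and 2 and of 191 and 188 on control IgG arrays 1 and 2, a log2 ratio of 2.97 ± 0.15 (SD, n = 2). Scaled signal is the array intensity brought to a common 75th percentile, and ± is the SD over the 2 experiments here and in what follows. The upstream probe, to NM_008146 and 3181 bases away, had 351 and 348 with CPEB2 IgG against 2155 and 2600 with control IgG, a log2 ratio of -2.76 ± 0.20. The antibodies did not overlap at either probe, and the same gene read high with CPEB2 IgG at the downstream probe and low at the upstream one.

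Arrdc4, an alpha-arrestin, spanned 5.49. Its higher probe (NM_001042592, transcript variant 1; chr7:75881905-75881964) had 879 and 1579 with CPEB2 IgG against 83.5 and 93.5 with control IgG, a log2 ratio of 3.74 ± 0.48. The lower probe (NM_025549, variant 2; chr7:75886496-75886555) lay 4591 bases upstream and had 111 and 86.6 against 329 and 333, a log2 ratio of -1.75 ± 0.27. Both control arrays exceeded both CPEB2 arrays at the lower probe, in the reverse of the order at the higher probe. In Fam13c both probes belonged to NM_024244 and lay 21584 bases apart. The downstream Fam13c probe had 1699 and 2093 with CPEB2 IgG against 263 and 293 with control IgG (2.76 ± 0.10). The upstream one, which spans a gap in the genome, had 727 and 269 against 2385 and 1520 (-2.11 ± 0.56). The 2 CPEB2 arrays differed by a larger fold from each other at the upstream Fam13c probe than the 2 control arrays did, yet stayed below them.

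Gstm4, a mu-class glutathione S-transferase, spanned 4.76 between probes of the same transcript, NM_026764, 2693 bases apart. Its downstream probe had 816 and 745 with CPEB2 IgG against 194 and 248 with control IgG (1.83 ± 0.34), and its upstream probe had 150 and 77.8 against 794 and 849 (-2.93 ± 0.74). Members of this gene family are close copies, so their signals may share molecules and are uncertain. Arid4a, a chromatin protein that binds the retinoblastoma protein, spanned 4.59 over 75762 bases of NM_001081195. The 3 Arid4a probes rose along the gene, from -1.39 ± 0.38 to 1.86 ± 0.21 and 3.19 ± 0.64. At the first of them (chr12:72124517-72124576) the CPEB2 arrays had 61.8 and 62.2 against 196 and 135, and at the last (chr12:72200279-72200338) 489 and 852 against 73.2 and 68.0. The antibodies were separated at both ends, in opposite directions.

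Adamtsl1, a secreted ADAMTS-like protein, spanned 4.56 over 228795 bases. Its downstream probe (NM_029967) had 792 and 672 with CPEB2 IgG against 72.5 and 57.3 with control IgG (3.5 ± 0.07). The upstream probe came from a cDNA clone, AK020115, and was dim on all arrays, with 21.1 and 23.4 against 39.1 and 55.3 (-1.06 ± 0.25), and the Adamtsl1 span was 2.83 with normexp background correction. Dnmt3b, a DNA methyltransferase, also spanned 4.56, over only 1305 bases of NM_001003961. The 3 Dnmt3b probes read -0.94 ± 0.27, 0.91 ± 0.32 and 3.62 ± 0.46 from upstream to downstream, and the last had 622 and 624 against 63.2 and 40.5. Dnmt3b therefore showed a large rise of the ratio over a short stretch, whereas Adamtsl1 and Arid4a showed it over long distances.

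Nfatc2, a calcineurin-dependent transcription factor, had probes to different transcripts 59783 bases apart. The downstream probe (NM_001136073, variant d) had 1356 and 1199 with CPEB2 IgG against 282 and 276 with control IgG (2.19 ± 0.11), and the upstream probe (NM_001037177, variant 2) had 27.5 and 23.4 against 110 and 139 (-2.28 ± 0.40). Spint2, a Kunitz-type serine protease inhibitor, had 1004 and 1117 against 199 and 202 at its downstream probe (2.40 ± 0.09) and 1400 and 1107 against 4781 and 5410 at its upstream probe (-2.03 ± 0.37), 25200 bases away. In both genes the antibodies separated at each probe, in opposite directions. Tor3a, a torsin-family ATPase, had the largest span, 4.34, among genes with the higher probe upstream. The probes lay 435 bases apart in NM_023141. At the upstream one Tor3a had 758 and 858 against 92.3 and 74.7 (3.28 ± 0.34), and at the downstream one 118 and 84.8 against 203 and 214 (-1.06 ± 0.40).

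**Figure D1:**
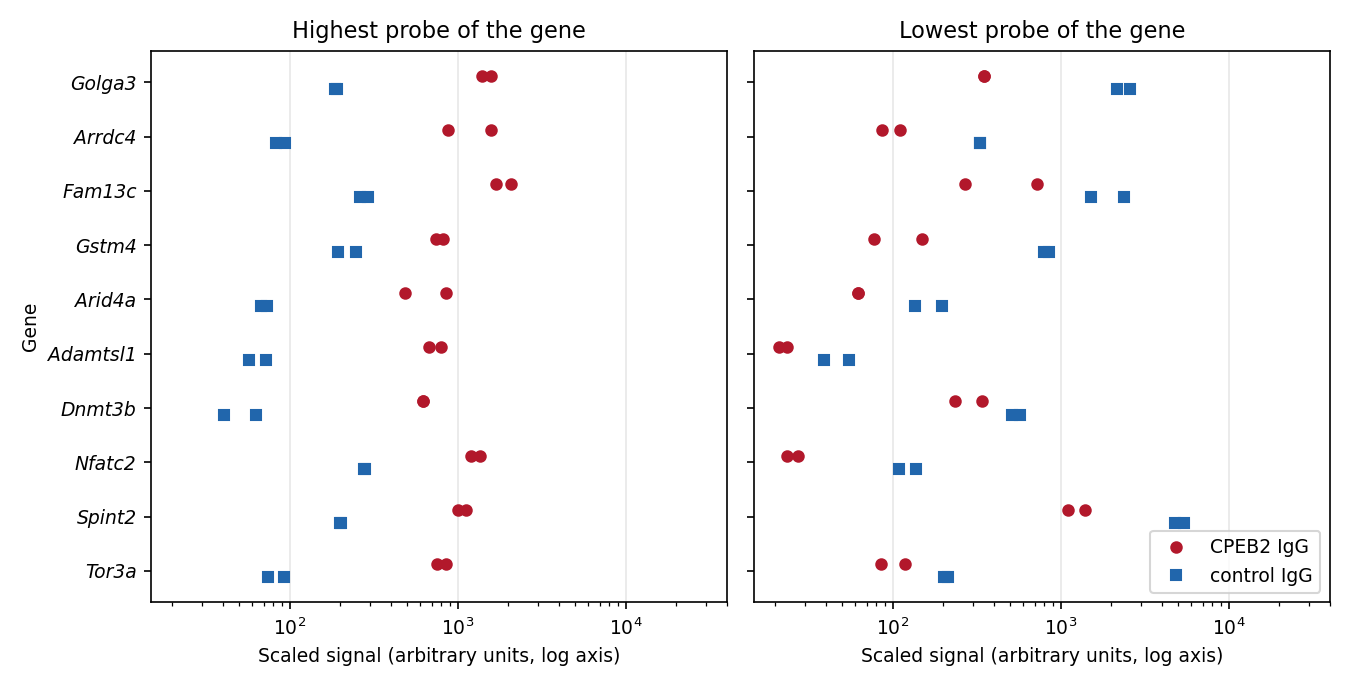
Scaled signal (log axis) of the higher and lower probe of the 10 genes with the largest span, with 1 point per array, CPEB2 IgG and control IgG in separate colours. In Golga3 the CPEB2 arrays read 1395 and 1576 against 191 and 188 at the higher probe and 351 and 348 against 2155 and 2600 at the lower probe.

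The highest-minus-lowest difference held its sign in both experiments for 1176 of the 1182 genes, and it exceeded 1.5 in each experiment separately for 844. Its median was 1.99 in experiment 1 and 2.25 in experiment 2, and the median SD of the difference over the experiments was 0.37, with a 90th percentile of 0.99. Since the mean of both experiments chose the genes, each experiment was also read at probes chosen by the other. Probes chosen in experiment 1 alone, in 1161 genes with a median span of 2.05, differed by a median of 2.06 in experiment 2, in the same order for 1109 genes (95.5%) and by more than 1.5 for 840 (72.4%). Probes chosen in experiment 2 alone, in 1388 genes with a median span of 2.15, differed by a median of 1.70 in experiment 1, in the same order for 1330 (95.8%) and by more than 1.5 for 829 (59.7%). The number of genes chosen from experiment 2 was larger, and the difference shrank on reading in experiment 1 and not on reading in experiment 2.

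**Figure D2:**
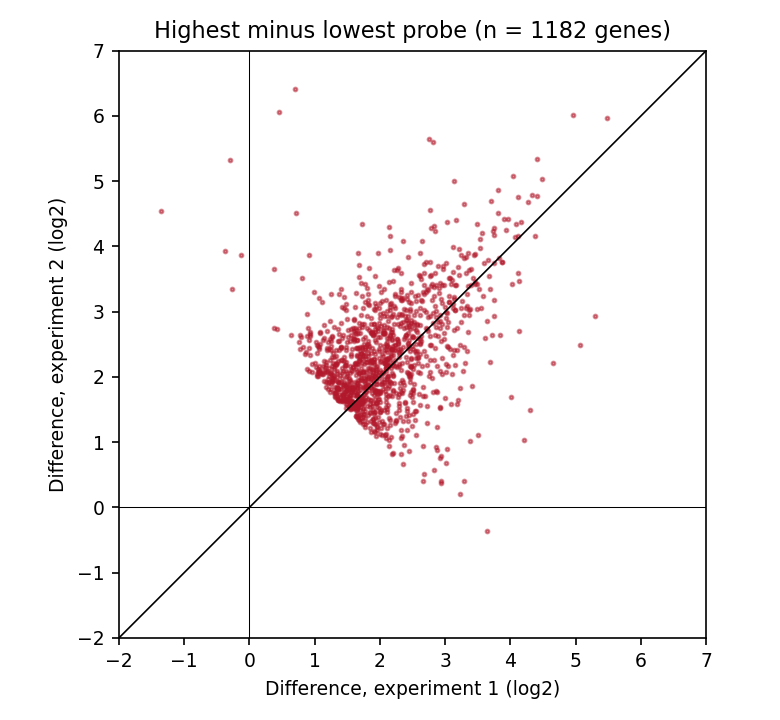
Log2 ratio of the higher probe minus that of the lower probe in experiment 1 (x axis) and experiment 2 (y axis), 1 point for each of the 1182 genes. The points lie above zero on both axes for 1176 genes, and 6 genes have opposite signs.

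The 6 genes whose order turned were Otop1, Olfr282, Muc20, Hdac8, Gpr31b and Cat, named here after their values were seen. In Otop1, an otopetrin proton channel, the higher probe had 29.4 and 493 with CPEB2 IgG against 43.8 and 27.3 with control IgG, so 1 array of the 4 stood apart. Olfr282, an olfactory receptor, had 24.7 and 588 against 44.8 and 30.9 at its higher probe. Hdac8, a histone deacetylase, had 46.4 and 31.1 against 55.6 and 493 at its lower probe. In these 3 genes a single bright array, CPEB2 array 2 or control array 2, set the span, and the other 3 arrays of the probe were dim. With normexp their spans were 1.44, 1.14 and 1.01, under the threshold. The genes nearest to the threshold were Chic1, Gtpbp10 and Trip4 just inside it, with spans from 1.5005 to 1.5017, and Col20a1, Prpf4b and Rbm3 just outside it, with spans from 1.4988 to 1.4999. Col20a1 differed by 0.40 in experiment 1 and 2.60 in experiment 2, so the side of the threshold on which such genes fell lay well within the spread between experiments.

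Position along the gene was not used by the rule. The higher and the lower probe lay on the same chromosome and strand in 1166 of the 1182 genes, and the higher probe was the downstream one in 1003 of them (86.0%) and the upstream one in 163. Among the 3600 other genes with 2 or more tested probes that could be placed in the same way, the higher probe was downstream in 2488 (69.1%). The share downstream was 55.4% in the 997 genes with spans up to 0.25, 74.7% in the 490 genes with spans of 0.75 to 1, 84.2% in the 520 with spans of 1.5 to 2 and 90.5% in the 147 with spans over 3. No test was made of these differences, because the direction is read from the same ratios that sorted the genes. The shares were 81.1% and 87.2% in genes chosen from experiment 1 alone and from experiment 2 alone. Labelling primed from the poly(A) tail, and the parts of priming and of RNA integrity in the share downstream were not tested.

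**Figure D3:**
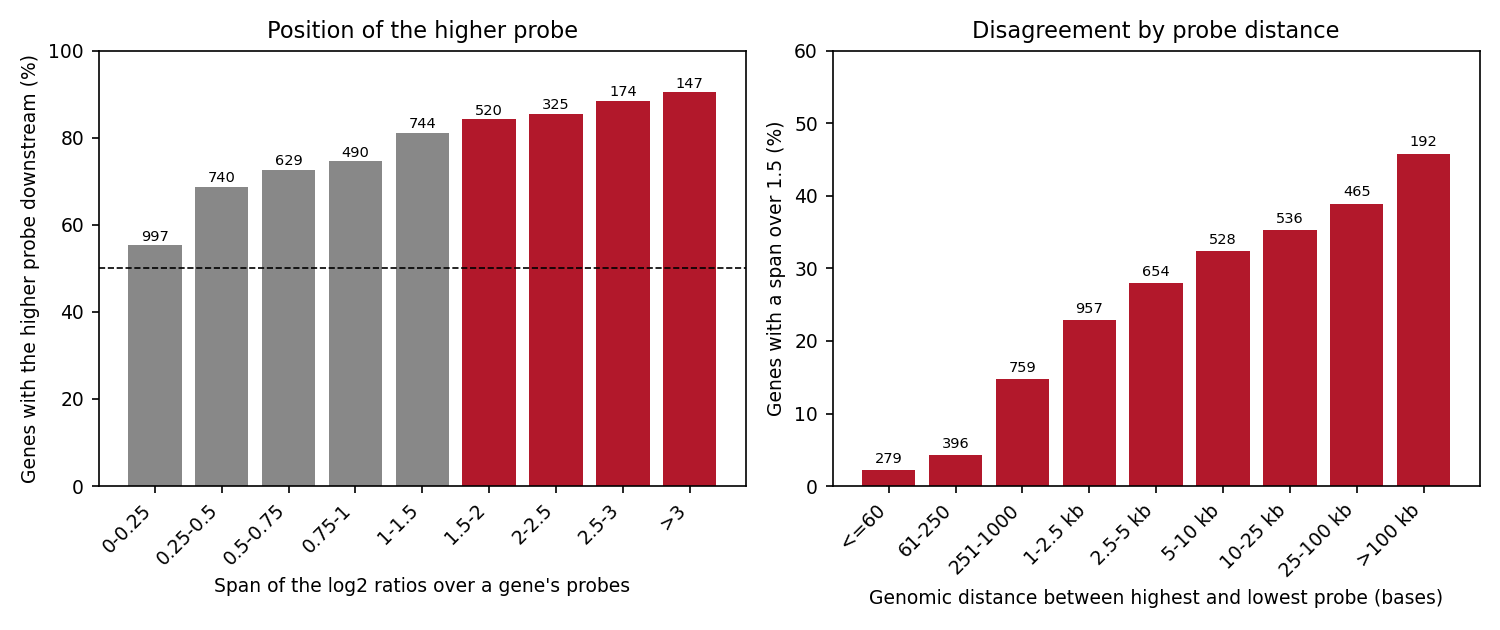
Left, percent of genes whose higher probe lies downstream, by span of the log2 ratio, with a dashed line at 50%. Right, percent of genes with a span over 1.5, by distance between the higher and lower probe, with the number of genes above each bar. The share downstream was 55.4% in the lowest span bin and 90.5% in the highest, and the share over 1.5 was 2.15% at distances up to 60 bases and 45.8% beyond 100 kb.

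The probes of the 1166 genes lay farther apart, with a median genomic distance of 6124 bases (interquartile range 1959 to 21816) against 1885 bases (493 to 7054) in the other genes. A span over 1.5 was found in 6 of 279 genes (2.15%) whose extreme probes lay within 60 bases of each other, in 17 of 396 (4.29%) at 61 to 250 bases, and in 88 of 192 (45.8%) beyond 100 kb. Probes that start within 60 bases of each other in the same exon read partly the same letters. Distances are genomic and include any introns between the probes. No upper limit was set, so the Gpr31b probes, 6017444 bases apart, count as placed although they may not lie along the same gene. Within the same accession, where the annotation also gives the position in the transcript, the median distance was 1858 bases in 722 of the genes and 714 bases in the others. The transcript order of the probes equalled their genome order in 99.6% of those 722 genes.

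The 1161 genes with all tested probes on the same strand were also read at their ends. The most upstream probe had a median ratio of -0.51 (interquartile range -1.15 to 0.07) and the most downstream probe 1.29 (0.31 to 2.03). In genes with 2 tested probes, 775 of the 1182, the ends are the extremes themselves. There the rule set the size of the gap between the ends, though not its direction. The other 3585 genes had medians of -0.27 and 0.04. The most downstream probe was more than 1.5-fold up with CPEB2 IgG in 797 genes (68.6%) and the most upstream one in 163 (14%). In the other genes those shares were 31.2% and 19.2%. The downstream end was above the upstream end in 85.4% of the genes in experiment 1, with a median difference of 1.75, and in 86.1% in experiment 2, with a median difference of 2.05.

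**Figure D4:**
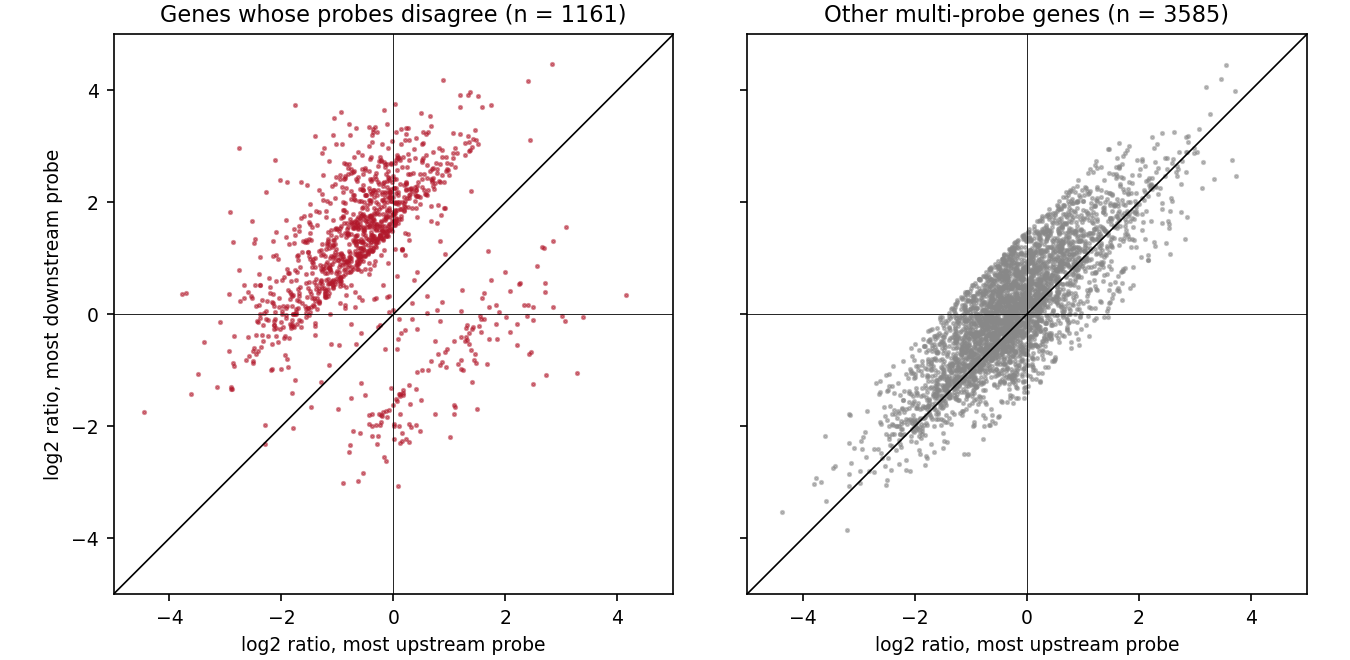
Log2 ratio of the most upstream and the most downstream tested probe of each gene, for the 1161 genes with a span over 1.5 and the 3585 other genes. The medians were -0.51 and 1.29 in the former and -0.27 and 0.04 in the latter.

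Of 307 genes with exactly 3 tested probes on the same strand, the ratio rose from each probe to the next downstream in 164 (53.4%) and fell in 8 (2.61%). In the other genes with 3 probes it rose in 162 of 451 (35.9%) and fell in 41 (9.09%). Of 86 genes with 4 or more probes, 16 rose and 1 fell at every step. In the other genes with 4 or more probes 14 of 79 rose and 1 fell, a similar share. The 16 included Abcc5, Cask, Csnk2a1 and Vprbp, which were picked after their values were seen except for Abcc5. Abcc5, a transporter of the ATP-binding cassette family, read -1.07, -0.08, 0.04 and 3.20 from upstream to downstream over 73086 bases. Its last probe (NM_013790, variant 1) had 12967 and 14222 with CPEB2 IgG against 1301 and 1678 with control IgG, and its first (NM_176839, variant 2) had 311 and 268 against 559.1 and 659, so the antibodies separated in opposite directions. Csnk2a1, a catalytic subunit of casein kinase 2, read -0.01, 0.15, 1.48 and 2.47, all within NM_007788. The last Csnk2a1 probe had 16210 and 18432 against 3327 and 2924. Vprbp, a substrate receptor of a ubiquitin ligase, read -0.11, 0.98, 1.48 and 2.69. Cask, a membrane-associated scaffold of synapses, read -1.09, -0.01, 0.36 and 1.24, a span of 2.33 that was 1.51 with GC centring.

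The accessions split the 1166 genes into 722 (61.9%) whose extreme probes carried the same transcript accession and 444 whose probes carried different ones. The higher probe was downstream in 663 (91.8%) of the former and in 340 (76.6%) of the latter. In the other genes the same shares were 71.1% of 2583 and 64.1% of 1017. Where the probes carried different RefSeq mRNA accessions, 200 genes, the higher probe was downstream in 82.0%, with a median distance of 11902 bases. Where the higher probe carried the accession of a GenBank clone and the lower probe that of a RefSeq mRNA, 32 genes, it was downstream in 14 (43.8%).

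Synaptic genes were described from lists of known genes. Of 26 glutamate receptor and postsynaptic genes with 2 or more tested probes, 6 (23.1%) passed the rule, close to the 24.2% of all such genes, with the higher probe downstream in 5. They included Shank3, Pick1, Grm5 and Homer1. Shank3, a scaffold of the postsynaptic density, had 3944 and 5589 with CPEB2 IgG against 1078 and 995 with control IgG at the downstream probe of NM_021423 (2.18 ± 0.44). The upstream Shank3 probe, 1781 bases away, had 61.5 and 35.2 against 102 and 74.4 (-0.90 ± 0.25). CPEB2 arrays were thus highest at the first and lowest at the second.

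Pick1, a PDZ protein that binds AMPA receptor subunits, differed in the other sense. Its downstream probe, to clone AK090155, had 475 and 685 against 422 and 396 (0.48 ± 0.44), and its upstream probe, to NM_008837, had 133 and 88.4 against 472 and 535 (-2.21 ± 0.55). In Pick1 the span of 2.69, which was 1.76 with GC centring, came mainly from the low upstream probe. Grm5, a metabotropic glutamate receptor, had 20213 and 19965 against 5875 and 5634 at its most downstream probe (1.80 ± 0.03), 227 and 148 against 268 and 289 at its most upstream (-0.60 ± 0.51) and a ratio of 0.93 at the probe between. The higher and lower probe had 38.3% and 55% GC in Grm5 and 36.7% and 60% in Shank3. The part of base composition in these spans was not tested.

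Homer1, which makes a short immediate-early form and long scaffold forms of a postsynaptic protein, had 5 tested probes. The 3 probes annotated to transcript variant S (NM_011982) read -0.18 ± 0.16, 0.04 ± 0.20 and 0.66 ± 0.05. The 2 probes annotated to variant L (NM_147176) lay farther downstream, 17308 bases from each other. The first of these (chr13:94157507-94157566) had 1485 and 1254 with CPEB2 IgG against 1848 and 1402 with control IgG (-0.24 ± 0.11), and the last (chr13:94174815-94174874) had 15625 and 20032 against 4331 and 4216 (2.05 ± 0.28). The antibodies overlapped at the first and were well apart at the last, so the difference of 2.29 lay between probes of the same annotated transcript. Its value was 2.17 in experiment 1 and 2.41 in experiment 2. The probes had 55% and 35% GC, and the difference was 1.16, under the threshold, when ratios were centred within bins of GC content.

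Gria3, Grin3a and Slc1a2 had a lower ratio upstream and a higher one downstream but stayed below the threshold. Gria3, an AMPA receptor subunit, read 0.83 ± 0.38 and, 23732 bases downstream, 2.27 ± 0.32. Grin3a, an NMDA receptor subunit, read 0.95 ± 0.03 and, 3410 bases downstream, 2.10 ± 0.25, a difference of 1.15 that was 0.31 with GC centring. Slc1a2, the main glial glutamate transporter, read -0.02, 0.52 and 1.30 at 3 successive probes. Glul, glutamine synthetase, had a single tested probe and could not be assessed.

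Of 20 presynaptic genes 5 (25%) passed, beside 24.2% of all 4884 genes, with the higher probe downstream in 4. Syn2, a synapsin on synaptic vesicles, had its higher probe 5084 bases upstream. That probe, annotated to variant IIb (NM_013681), had 53835 and 55606 against 38339 and 40569 (0.47 ± 0.02), and the one annotated to variant IIa (NM_001111015) had 443 and 499 against 1782 and 2243 (-2.09 ± 0.11). The span in Syn2 thus lay between probes annotated to different transcript forms, and the larger departure from zero was the low ratio at the IIa probe. With a single tested probe per form, transcript form and probe cannot be told apart. Erc2, an active-zone protein, had 21095 and 26301 against 9287 and 9989 downstream (1.29 ± 0.15) and a ratio of -0.58 ± 0.12 at a probe 175581 bases upstream in the same transcript. Sv2c, a synaptic vesicle glycoprotein, read 1.5 ± 0.37 and -0.26 ± 0.24 at probes only 247 bases apart. With GC centring the span fell below the threshold in both, to 0.79 in Erc2 and 1.14 in Sv2c, and Sv2c also fell to 1.08 with normexp and to 1.32 without experiment 2. Nrxn3 and Erc1 completed the 5.

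Ion channels passed in 6 of 29 genes (20.7%), beside 24.2% of all 4884 genes, with the higher probe downstream in all 6. The 6 were Scn3a, Kcnc1, Scn2a1, Cacna1i, Cacna1g and Kcnd3. Scn3a, a voltage-gated sodium channel, had 5 probes that read -0.43, -0.25, 2.06, 3.03 and 0.73 from upstream to downstream. Its higher probe had 6925 and 6548 against 816 and 835 (3.03 ± 0.08). The ratio of Scn3a did not keep rising, since the last probe, beyond the highest, read lower again. Scn2a1, a neighbouring sodium channel gene, had 8266 and 11126 against 2026 and 2189 at its higher probe (2.19 ± 0.22) and -0.13 ± 0.08 at a probe 81635 bases upstream. Kcnc1, the voltage-gated potassium channel Kv3.1, had 3017 and 4178 against 726 and 777 at the probe of variant A (2.24 ± 0.26) and 229 and 232 against 300.2 and 381 at the most upstream probe of variant B (-0.55 ± 0.23). The span of Kcnc1, 2.79, was 1.44 with GC centring, under the threshold.

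Among 36 kinase and signalling genes 10 (27.8%) passed, beside 24.2% of all 4884 genes, with the higher probe downstream in 8. Ntrk2 and Ntrk3 encode the neurotrophin receptors TrkB and TrkC, each made as a full-length kinase and as a truncated receptor from an earlier transcript end. In Ntrk3 the higher probe was annotated to variant 2 (NM_182809) and lay 53864 bases upstream of the lower, annotated to variant 1 (NM_008746). The variant 2 probe of Ntrk3 had 3217 and 2954 against 457 and 447 (2.77 ± 0.06). The variant 1 probe had 109 and 176 against 128 and 190 (-0.17 ± 0.08), and there the antibodies overlapped. The 2 variant 2 probes of Ntrk3 read 1.59 and 2.77, and the 2 variant 1 probes -0.17 and 0.28.

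Ntrk2 had its highest ratio at the only probe annotated to variant 2 (NM_008745), with 1280 and 1361 against 364 and 266 (2.08 ± 0.38). The most upstream Ntrk2 probe, listed under both variants, had 1059 and 958 against 1406 and 1320 (-0.44 ± 0.04), and the most downstream, of variant 1, read 0.91 ± 0.19. The highest ratio lay at a probe annotated to variant 2 in both receptor genes, and the span of Ntrk2, 2.52, was 1.63 with GC centring. Dclk1, a doublecortin-like kinase, had its higher probe upstream, with 7234 and 3051 against 3308 and 1960 (0.88 ± 0.35). That probe's antibodies overlapped, although CPEB2 exceeded control within each experiment. The lower Dclk1 probe, to clone AK047716, had 45.8 and 49.9 against 155 and 230 (-1.98 ± 0.31). Camk4, a calcium/calmodulin-dependent kinase, read -2.46 ± 0.53 at its upstream probe, with 211 and 154 against 893 and 1091, and 0.15 ± 0.18 at a probe 256231 bases downstream.

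RNA-binding proteins passed in 14 of 41 genes (34.1%), beside 24.2% of all 4884 genes, with the higher probe downstream in 11. They were Tardbp, Celf2, Qk, Khdrbs1, Fmr1, Hnrnpc, Nova1, Syncrip, Tial1, Mbnl2, Rbfox3, Celf4, Hnrnpk and Elavl2. Tardbp encodes TDP-43, which regulates splicing and RNA stability. The downstream Tardbp probe (NM_145556, variant 1) had 263 and 479 with CPEB2 IgG against 116 and 140 with control IgG (1.48 ± 0.41), and the upstream probe (NM_001008546, variant 4) had 62.9 and 77.6 against 276 and 325 (-2.10 ± 0.05). A further probe, 751 bases downstream of the lower one, read 1.39, close to the higher probe.

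Celf2, a splicing and mRNA stability regulator, read 0.13 ± 0.10, 2.28 ± 0.35 and 3.31 ± 0.47 within 5170 bases. The first Celf2 probe had 1942 and 1928 against 1858 and 1681, and the last had 22995 and 34809 against 2920 and 2784. Qk, the quaking protein of glia, had 5 probes with ratios of 0.15, 0.99, 2.69, 2.48 and 1.16, so that the middle of the series was highest. Its higher probe had 7175 and 7614 against 1299.5 and 1010.0, and its lower probe had 6896 and 5330 against 6034 and 4973, where the antibodies overlapped. Fmr1, the fragile X protein, read -0.65 and -0.66 at 2 probes 520 bases apart. At a probe 22171 bases farther downstream it had 2317 and 3143 against 779 and 887 (1.70 ± 0.18). Neighbouring probes of Fmr1 thus gave nearly the same ratio, and the distant one departed.

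Cytoskeletal and adhesion genes passed in 11 of 36 (30.6%), beside 24.2% of all 4884 genes, with the higher probe downstream in 11 of 11. Ank3 encodes ankyrin-G of the axon initial segment. Its upstream probe (NM_170728, variant 1) had 126 and 95.6 with CPEB2 IgG against 353 and 333 with control IgG, a ratio of -1.64. A probe of variant 2 (NM_146005) had 450 and 376 against 614 and 502 (-0.43), and the last probe of variant 2 (chr10:69489525-69489584), 176669 bases from the first, had 4780 and 5588 against 997 and 1002 (2.37 ± 0.15). The antibodies did not overlap at any of the 3 and changed order at the last. Klc1, a kinesin light chain, had 65.5 and 91.6 against 57.3 and 62.6 at the probe of variant d (0.37 ± 0.25). At the upstream probe of variant a Klc1 had 1235 and 1354 against 8451 and 11676 (-2.94 ± 0.24). Kif3a, a kinesin-2 motor, had 5111 and 5101 against 5138 and 6150 downstream (-0.14 ± 0.19) and 802 and 877 against 7310 and 7140 upstream (-3.11 ± 0.12). Klc1 and Kif3a therefore had a low probe upstream and no probe much above zero, unlike Ank3, and the span of Klc1, 3.31, was 1.93 with GC centring.

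**Figure D5:**
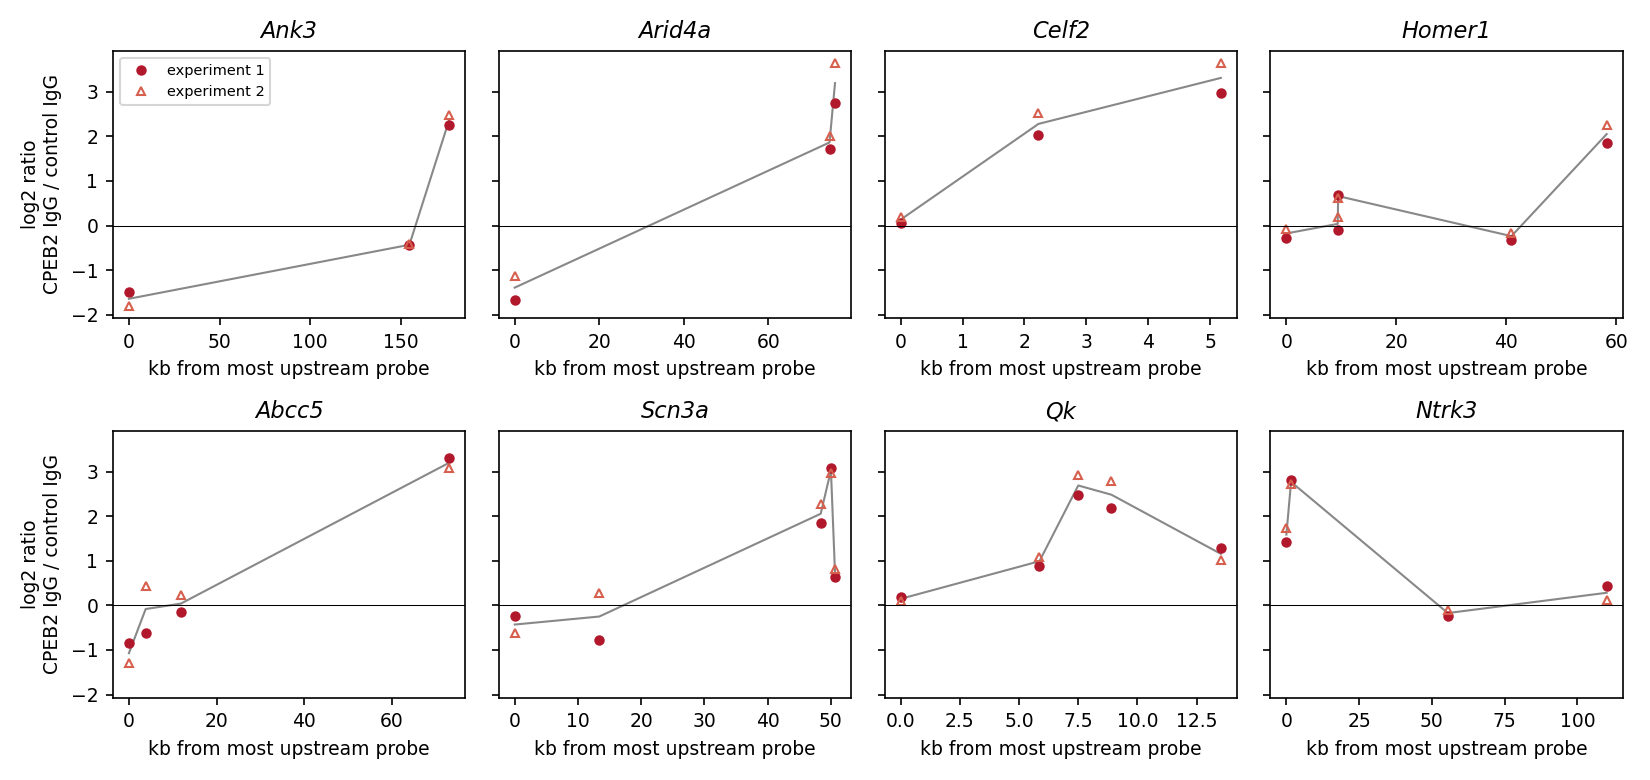
Log2 ratio of each tested probe against its distance in kb from the most upstream probe in Ank3, Arid4a, Celf2, Homer1, Abcc5, Scn3a, Qk and Ntrk3, with 1 point per experiment and a grey line through the means. The ratio rises along Ank3 (-1.64, -0.43, 2.37) and Celf2 (0.13, 2.28, 3.31), peaks inside Scn3a and Qk and is highest at the second probe of Ntrk3.

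Chromatin and transcription genes passed in 13 of 36 (36.1%), beside 24.2% of all 4884 genes, with the higher probe downstream in 11. Foxp2, a forkhead factor linked to vocal learning, read 2.21 ± 0.59 downstream and -0.76 ± 0.18 at a probe 27948 bases upstream. Mll5, a histone methyltransferase family member, had 9631 and 7294 against 1546 and 1669 downstream (2.38 ± 0.36) and 1395 and 1195 against 1966 and 1462 upstream (-0.39 ± 0.14). Bcl11b, a zinc-finger factor, had 1859 and 2536 against 936 and 903 downstream (1.24 ± 0.35) and 1122 and 1260 against 2529 and 2894 upstream (-1.19 ± 0.02), a span of 2.43 that was 1.07 with GC centring and so under the threshold. CPEB2 arrays were above control at the downstream probe and below it at the upstream probe in each of these 3 genes.

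A list of genes known to use alternative transcript ends held 25 with 2 or more tested probes. Of these 10 (40%) passed, beside 24.2% of all 4884 genes, with the higher probe downstream in 10. They included Timp2, Ntrk2, Fmr1, Homer1, Cdc42, Igf1, Nrxn3 and Elavl2, some of which also stand in the other lists. Timp2, an inhibitor of metalloproteinases, had 50305 and 50989 against 19268 and 16378 downstream (1.51 ± 0.18) and 135 and 134 against 283 and 301 at a probe 8818 bases upstream (-1.12 ± 0.07). Of 9 genes that host nested or antisense transcripts, 1 passed (11.1%), which was Peg3. Peg3, an imprinted zinc-finger gene, had 1259 and 1194 against 1564 and 1144 downstream (-0.13 ± 0.26) and 51.4 and 46.9 against 212 and 217 upstream (-2.13 ± 0.12), so its span came from the low upstream probe, and it was 1.15, under the threshold, with normexp. Median spans over the lists lay between 0.61 and 1.21, beside 0.75 over all 4884 genes, and no list was tested. The lists were not matched for probe number, and the share that passed was 19.9% with 2 tested probes and 41.5% with 3 or more. Downstream counts in the lists stand beside 86.0% of the 1166 placed genes.

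The 163 genes with the higher probe upstream include some of the widest spans. Bcl7c, a subunit of chromatin remodelling complexes, was picked after its values were seen. It had 12419 and 13617 with CPEB2 IgG against 706 and 748 with control IgG at the upstream probe, to NM_009746 (4.16 ± 0.04). At a probe to clone AK038789, 43750 bases downstream, Bcl7c had 308 and 287 against 248 and 222 (0.34 ± 0.04). Both Bcl7c probes read above control, by very different amounts. Hbs1l, a translational GTPase of ribosome rescue, likewise picked after its values were seen, had 207 and 198 against 31.7 and 29.7 at the probe of variant 3 (2.72 ± 0.02). At the probe of variant 1, 57880 bases downstream, it had 638 and 1011 against 1708 and 1693 (-1.08 ± 0.48), and the span of 3.80 was 2.41 with normexp. Pigu, a subunit of the enzyme that attaches GPI anchors, read 2.49 ± 0.19 at NM_001004721 and -1.24 ± 0.24 at clone AK162913, 30848 bases downstream. The lowest raw intensity at the Pigu probes on any array was 20.9, so its span includes a dim value. In these 3 genes the extreme probes carried different accessions. In Elk1, an ETS transcription factor, both probes were annotated to NM_007922 and lay 1940 bases apart. The upstream Elk1 probe had 1719.7 and 3192 against 196 and 253 (3.40 ± 0.37), and the other had 419298 and 391931 against 438652 and 399280 (-0.05 ± 0.03) and is listed under several transcript accessions. A run of 14 letters of that probe, picked as the one found most often, stood in 10 of the 55681 probes, whose median raw intensity on control array 1 was 165029 against 71.1 over all probes. The bright Elk1 probe is therefore uncertain as a measure of Elk1 RNA, and so is the span.

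Fgfr2 and Aldh3a1 disagreed between probes that share most of their letters. Fgfr2, a fibroblast growth factor receptor, had 2 probes 18 bases apart, identical over the 42 bases that both cover and equal in GC content, 43.3%. The stretches shown are the middle 30 bases of each probe, with the 12 bases common to both stretches in capitals.
Fgfr2 upstream, lower probe: tgtctgcctcagtatccaCACATAAACGGC
Fgfr2 downstream, higher probe: CACATAAACGGCagtgttaaaacatgagtg
The downstream probe had 80.1 and 63.4 with CPEB2 IgG against 29.8 and 41.1 with control IgG (1.03 ± 0.57), and the upstream probe had 353 and 247 against 469 and 555 (-0.79 ± 0.54). The antibodies separated in opposite directions at probes that differ by 18 bases at each end. Aldh3a1, an aldehyde dehydrogenase, had probes 7 bases apart with 53 identical shared bases, and they read 0.49 ± 0.19 and -1.54 ± 0.64. Both genes were picked after their values were seen. With normexp background correction their spans fell below the threshold, from 1.82 to 1.11 in Fgfr2 and from 2.02 to 1.27 in Aldh3a1.

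Base composition differed between the probes of a gene. Mean GC content was 38.3% at the higher probes and 44.9% at the lower probes of the 1166 genes, and in the other genes 41.3% and 44.2%. The higher probe had less GC in 846 genes (72.6%), equal GC in 146 (12.5%) and more GC in 174 (14.9%). It was downstream in 88.9%, 83.6% and 74.1% of these groups, against 81.0%, 63.6% and 48.7% in the other genes. The part of base composition in the ratios was not tested. When the ratios were centred within 20 bins of GC content, 929 genes had a span over 1.5, of which 757 were among the 1182. The higher probe was then downstream in 80.1%, and in 57.2% of the other genes.

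Brightness moved with membership too. The share of genes that passed was 25.3% where the dimmest raw intensity of the extreme probes was under 30 and 12.6% where it was over 1000, while the share of those genes with the higher probe downstream went from 79.9% to 91.3%. Between these limits the share that passed was 27.5, 27.8 and 21.0% in successive classes of rising intensity. The extreme probes also lay closer together in the brightest class, with a median distance of 595.5 bases against 6115 in the dimmest. The part of brightness in the spans was not tested. When probes had to reach a raw intensity of 100 on all arrays, 598 genes had a span over 1.5, and the higher probe was downstream in 88.5%.

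The letters of the probes were searched as listed, on the sense strand, for the short CPE form TTTTAT, the longer form TTTTAAT and the poly(A) signal AATAAA, and the last 2 can share letters. The form TTTTAT stood in 95 higher probes (8.15%) and 14 lower probes (1.20%) of the 1166 genes, and in 4.33% of all tested probes. TTTTAAT stood in 21 (1.80%) and 2 (0.17%), and in 1.08% of all tested probes. Either CPE was found in 113 higher probes (9.69%) and 16 lower probes (1.37%), against 6.58% and 3.47% in the other genes. The hexamer AATAAA stood in 183 higher probes (15.7%) and 70 lower probes (6.00%), against 17.3% and 12% in the other genes and 14.4% of all tested probes. These motifs hold mostly A and T, so their frequency moves with GC content. Among probes with at most 35% GC, either CPE stood in 84 of 568 higher probes (14.8%), in 6 of 146 lower probes (4.11%) and in 11.7% of all tested probes. Higher and lower probes also differed in position, since the higher probe was downstream in 86.0% of the 1166 genes. The motif shares were not matched for position, also among probes with at most 35% GC. A motif in a 60-base probe is a description of the probe and says nothing of the rest of the transcript.

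Probes whose listed position extends beyond 60 bases, and so includes a gap of any length, were 9 of the higher probes (0.77%) and 132 of the lower probes (11.3%). In the other genes the shares were 3.08% and 6.72%. The lower probes of Fam13c, Gstm4, Tardbp and Foxp2 were of this kind, listed over 353 to 6199 bases, and that of Sv2c was listed over 61. Some probes are listed over fewer than 60 bases, such as the higher probe of Cask over 18, and are only partly placed. A probe that spans a long gap may lie at an exon junction, but the annotation used here gives no exons, coding sequence or UTR. The place of the probes in their transcripts is therefore known only by position and accession.

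Some annotations limit the reading of single genes. In 11 genes the extreme probes lay on different chromosomes or were unplaced, and in 5 on opposite strands, which were Csmd1, 2610209C05Rik, Cnn3, Trim28 and Cxx1c. Csmd1, a complement regulator of the brain, had 4624 and 4649 against 461 and 485 at NM_053171 (3.29 ± 0.05) and a ratio of -0.33 ± 0.44 at clone AK048002, which is annotated to the other strand. RefSeq gives a gene strand, on build GRCm38, for 938 of the placed genes, and it equalled the strand of the probes in 934 (99.6%). The exceptions were Syne1, Ipcef1, Nkain1 and Ccl19, whose upstream and downstream ends are uncertain. By symbol 1177 of the 1182 genes matched RefSeq, 1165 of them protein-coding and 6 transcribed pseudogenes. Gm6981, a pseudogene picked after its values were seen, had 5609 and 5366 with CPEB2 IgG against 74528 and 94602 with control IgG at its lower probe (-3.94 ± 0.29). The other Gm6981 probes read -3.66, -3.49, -3.12 and, at the higher probe, -0.18. The span of 3.75 thus came from the higher probe, whose listed position covers only 29 bases. The probe that read -3.12 is annotated to the opposite strand. The Gm6981 probes may read RNA of near-identical copies and are uncertain as a measure of Gm6981.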

How the data were processed

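The authors deposited 4 Agilent Feature Extraction (version 10.5.1.1) files of 62976 spots, whose processed signal is a background-subtracted linear intensity with no normalisation between arrays. RNA was labelled with Cy3 by the Low Input Quick-Amp kit, which primes from the poly(A) tail. The part of priming in positional differences was not tested. Intensity was scaled so that the 75th percentile of each array equalled the mean over arrays, and log2 was taken. Spots of a probe were averaged and control and outlier spots left out. Of 55681 distinct probes 66 had no value on some array, and 33256 carried a gene name. Tests were over the 23916 named probes well above background on all 4 arrays, in 17804 genes. A ratio is the mean of 2 paired differences of CPEB2 IgG minus control IgG. Pairing comes from the divided lysates, and deviations of same-numbered arrays from their group means correlated at 0.206.

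limma 3.58.1 in R 4.3.3 fitted antibody and, as a block, experiment, adjusting p-values by Benjamini-Hochberg over all tested probes and a threshold of 0.05. It was tested on simulated data and gave the share of probes called in all, not evidence about the genes. Other steps used Python 3.11.15 with numpy 2.4.6 and pandas 2.3.3. Strand was read from the order of the mm9 coordinates of each probe. RefSeq tables gave names and, on GRCm38, gene strands, and no coordinates were moved between builds. Printed stretches are 30 bases of probe sequence from the array files.

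The genes and lists were chosen with earlier results of these data known. Named genes were the 10 with the largest span, the 10 with the largest span among those with RefSeq probes past 1.5-fold in opposite directions, Homer1, Gria3, Grin3a, Glul and Slc1a2, the 3 with the largest span in each list, and the 3 on each side of the threshold. Other genes were named after their values were seen, and some are not reported here. Alternatives were the scaling, background correction, filters, thresholds, GC centring, accession classes and each experiment left out.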

Additional observations from a re-analysis of the deposited data

How the results depend on the processing

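The 1182 genes became 598 with a raw intensity of at least 100 and 81 with at least 1000 (the latter chosen after seeing the data), 1940 with a span over 1, 656 with a span over 2, and 1161 to 1388 with either experiment left out. With normexp background correction 865 genes passed, of which 828 were among the 1182. With probes well above background on at least 2 of 4 arrays 1374 passed, and with no filter on dim probes 1747. The 403 genes past 1.5-fold in opposite directions became 208 with normexp background correction, 187 and 27 with raw intensity of at least 100 and 1000, 631 with no filter on dim probes, 133 at 2-fold, and 443 to 541 with either experiment left out. The 86.0% with the higher probe downstream became 80.6% with no filter, 80.1% with GC centring, and, chosen after seeing the data, 91.8% within the same accession and 76.6% across accessions, and it ranged from 81.1 to 87.2% with either experiment left out. In the other genes that share ran from 57.2% with GC centring to 71.7%.

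The limma counts of 5887 probes higher and 6324 lower were 5626 and 5807 without the replicate block, 2227 and 1969 with no filter, 6370 and 5880 with quantile normalisation, and 6568 and 4281 with median centring, and the last 3 turned the balance from more probes lower to more probes higher. With each array left out in turn (chosen after seeing the data), which leaves an antibody with 1 array assumed to vary like the other, 4490 to 5755 were higher and 4400 to 5892 lower. Of 82 named genes with a span over 1.5, 17 were no longer over it with GC centring, 19 with normexp, 6 with quantile normalisation, 5 without experiment 1 and 10 without experiment 2. The order of the probes turned in Cat without experiment 1 (-0.36 to 3.64 over both leave-outs) and without experiment 2 in Gpr31b (-0.26 to 3.34), Hdac8 (-0.13 to 3.87), Muc20 (-0.37 to 3.93), Olfr282 (-1.36 to 4.54) and Otop1 (-0.30 to 5.33). The cause was not tested. Spans of named genes were read at the same higher and lower probe under each alternative. Filters on dim probes therefore leave such a span as it is or drop the gene, and say nothing of its stability. For the counts of genes, the extreme probes were chosen again under each alternative.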
